A study of Mus musculus with 144 samples.

Results

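Podocytes sorted from the glomeruli of healthy wild-type mice at 6 weeks of age were compared with mesangial cells and glomerular endothelial cells (gECs) sorted from mice of the same strain, age and sexes. The comparison used 8 libraries of each cell type (4 female and 4 male), 24 of the 144 samples in the series. A gene was called a podocyte gene when it was higher in podocytes than in both other cell types, each with an adjusted p under 0.05 and on both deposited measures (expected counts, and TPM, a transcript abundance scaled for transcript length and depth). Of 16917 genes tested, 3864 were podocyte genes (22.8%). A narrower set of 419 podocyte-restricted genes (2.48%) had a log2 fold change of at least 3 in both comparisons, a mean podocyte level of at least 5 TPM, and a lowest podocyte library above the highest of the other 16.

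All mice were on the BTBR background. The WT animals (genotype BTBR +/+) carried a 2-colour reporter at the Gt(ROSA)26Sor locus, the allele tm4(ACTB-tdTomato,-EGFP)Luo, together with a transgene that drives Cre in podocytes, so that these cells switch from tdTomato to EGFP. Glomeruli were isolated with magnetic beads and digested with enzymes, and CD45-negative cells were sorted: podocytes as EGFP-positive, tdTomato-negative and CD73-negative, mesangial cells as CD73-positive and PODXL-negative, and gECs as PODXL-positive and EGFP-negative. The gates therefore used PODXL, the product of Nt5e (CD73) and the activity of a podocyte promoter, and the levels of Podxl and Nt5e between the cell types are checks of the sort. WT libraries of the same cell types at 12 weeks (8 per type) and 18 weeks (7 per type) served as samples that the calls had not used. The labels do not say which libraries came from the same mouse, so the p-values measure the spread between these libraries.

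Podocytes are the epithelial cells that wrap the outside of the glomerular capillaries. Their foot processes interlock across the slit diaphragm, a cell junction built around nephrin (Nphs1), and together with the endothelium they lay down the glomerular basement membrane that completes the filter. They are long-lived and rarely divide, they feed the endothelium with VEGF-A, and many of the genes they depend on are known from inherited nephrotic syndrome.

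The 24 libraries held 22290789 to 34957468 expected counts (median 26072304), with 22489929 to 29416435 in podocytes, and mitochondrial genes took 6.39 to 9.07%. The sex on the label matched Xist and Ddx3y in all 24 libraries, the lowest female Xist being 124 TPM and the highest male 1.99 TPM. All 14 podocyte markers tested were podocyte genes, and their summed level was 26004 to 30986 TPM in podocytes, 346 to 510 TPM in mesangial cells and 1952 to 4264 TPM in gECs. Summed mesangial markers stood at 22.6 to 72.8 TPM in podocytes against 16205 to 20095 TPM in mesangial cells. Summed gEC markers stood at 386 to 461 TPM in podocytes against 11660 to 14094 TPM in gECs, and most of the podocyte value was Cldn5 (402 TPM), the 1 of 14 gEC markers that was itself a podocyte gene. Pecam1, Cdh5 and Kdr, which define endothelium, had mean podocyte levels of 1.37, 0.396 and 0.545 TPM. Of the marker lists of other cell types, 1 of 8 smooth muscle and renin markers tested (Ntrk3) and 1 of 4 parietal epithelium markers (Cldn1) were podocyte genes. No podocyte gene was found among 13 mesangial, 4 proximal tubule, 3 distal nephron, 3 immune and 4 erythroid markers tested, with edgeR and limma, at an unadjusted p under 0.05, or with DESeq2.

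The 3 markers named for the comparison are described first. Nphs1 (ENSMUSG00000006649, mm10 chr7:30458315-30487223, plus strand) encodes nephrin, the adhesion molecule of the slit diaphragm. Its lowest, median and highest podocyte libraries were at 1468, 1865 and 2001 TPM, against 0.44, 1.96 and 3.94 TPM in mesangial cells and 18.2, 60.3 and 161 TPM in gECs. Every podocyte library lay above every other library, and the log2 fold change was 9.79 ± 0.55 (SE) against mesangial cells and 4.54 ± 0.43 against gECs (adjusted p = 1.69e-14 and 6.02e-10, edgeR quasi-likelihood test with Benjamini-Hochberg adjustment). Synpo encodes synaptopodin, an actin-associated protein of foot processes, and ran from 2320 to 2583 TPM in podocytes (median 2533), from 124 to 151 TPM in mesangial cells (median 128) and from 43.2 to 257 TPM in gECs (median 92). Its groups did not overlap either, with log2 fold changes of 4.31 ± 0.27 and 4.53 ± 0.28, and its mesangial level was well above that of Nphs1. Podxl encodes podocalyxin, the sialomucin that coats foot processes and also endothelium. It ran from 6475 to 7650 TPM in podocytes (median 7467), from 2.11 to 17.1 TPM in mesangial cells (median 7.41) and from 1204 to 1856 TPM in gECs (median 1392). Podxl was higher in podocytes than in both, but its log2 fold change against gECs was 2.37 ± 0.27, below the limit for a podocyte-restricted gene.

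**Figure D1:**
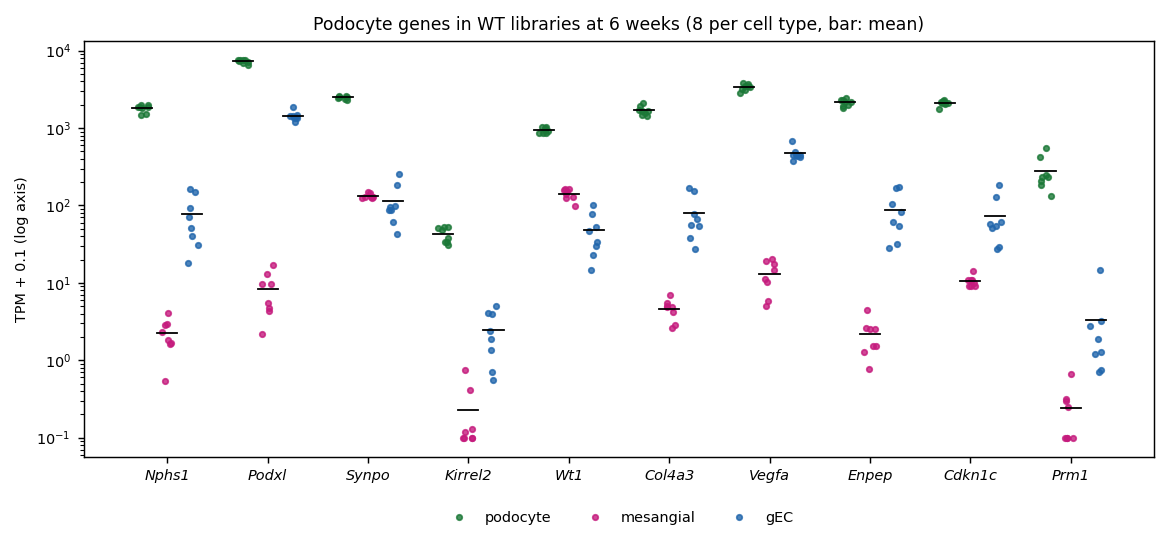
TPM + 0.1 on a log axis for 10 podocyte genes in each of the 24 WT libraries at 6 weeks. Each point is a library, colours give the cell type and bars the mean of 8 libraries. Podocyte points lie above all others for each gene, and the distance to gECs is smallest for Podxl (1204 to 1856 TPM in gECs) and Vegfa (373 to 682 TPM in gECs).

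Some podocyte genes sit next to each other in the genome. Among 832 pairs of protein-coding genes tested that start head to head within 5000 bases, both genes were podocyte genes in 78 pairs. A podocyte-restricted gene was present in 13 pairs, and both genes were podocyte-restricted in 3 of these: Col4a3 with Col4a4 (chromosome 1, starts 72 bases apart), Nphs1 with Kirrel2 (chromosome 7, 625 bases) and Col4a5 with Col4a6 (chromosome X, 1309 bases). Of single genes tested 22.8% were podocyte genes. Whether neighbours were called together more often than other genes was not tested. The sequences upstream of 5 podocyte-restricted genes are shown as the stretches that lie next to the starts of genes described here: the 71 bases between the starts of Col4a4 and Col4a3 (read along Col4a4), the part of the Nphs1 to Kirrel2 interval next to Kirrel2, and windows before Lmx1b, a transcription factor gene, Enpep, an aminopeptidase gene, and Npnt, a basement membrane ligand gene. They are from RefSeq on GRCm38.p6 (mm10), written 5′ to 3′ on the gene's own strand and trimmed to bases outside annotated exons. Capitals mark matches to the letters of a TATA box (TATAAA, in Enpep only as its reverse complement, 52 bases before the start) and of GC boxes (CCGCCC on either strand, 3 in Npnt). Whether any match works as such a box was not tested. Npnt has another RefSeq start, and its window (158 bases) held none of the motifs.
Col4a4, chr1:82586850-82586920, minus strand: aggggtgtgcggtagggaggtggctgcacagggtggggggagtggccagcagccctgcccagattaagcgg
Kirrel2, chr7:30457691-30457765, minus strand: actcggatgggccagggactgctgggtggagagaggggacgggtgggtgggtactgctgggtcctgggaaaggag
Lmx1b, chr2:33641099-33641192, minus strand: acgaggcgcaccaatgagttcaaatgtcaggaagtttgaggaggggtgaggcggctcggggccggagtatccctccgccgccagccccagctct
Enpep, chr3:129332750-129332999, minus strand: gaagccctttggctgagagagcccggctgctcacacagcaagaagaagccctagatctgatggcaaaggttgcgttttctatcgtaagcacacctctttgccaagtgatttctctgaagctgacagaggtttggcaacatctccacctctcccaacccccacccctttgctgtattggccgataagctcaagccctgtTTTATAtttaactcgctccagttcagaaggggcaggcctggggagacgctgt
Npnt, chr3:132950292-132950541, minus strand: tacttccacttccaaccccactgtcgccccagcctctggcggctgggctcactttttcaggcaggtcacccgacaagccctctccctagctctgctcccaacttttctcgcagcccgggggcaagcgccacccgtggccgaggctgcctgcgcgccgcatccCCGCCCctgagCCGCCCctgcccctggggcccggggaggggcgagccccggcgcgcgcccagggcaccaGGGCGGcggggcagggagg

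Motifs were counted on both strands in the 250 bases before each RefSeq gene start, for the 264 podocyte-restricted and 11274 tested genes that matched by name. TATAAA was present in 9.85% of podocyte-restricted windows and 6.79% of all tested windows, CCGCCC in 53% and 56.9%, and the E-box CAGCTG in 12.5% and 12.1%. TAATTA, the core read by LIM-homeodomain proteins such as LMX1B, was present in 3.41% and 2.29%, the forkhead motif GTAAACA in 0.379% and 2.11%, and the TEAD motif GGAATG in 12.5% and 10.9%. The WT1 motif GCGTGGGAG was in no podocyte-restricted window and in 0.594% of all tested windows. These shares are descriptions of letters in short windows and were not tested.

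Across the transcriptome, 6379 genes were higher in podocytes than in mesangial cells (37.7% of genes tested) and 5978 were lower (35.3%), while 6420 were higher than in gECs (37.9%) and 6181 were lower (36.5%). On expected counts 4539 genes were higher than in both (26.8%), of which 3864 also passed on TPM, and 4216 were lower than in both (24.9%). A further 1840 genes were higher than in mesangial cells only and 1881 than in gECs only. Of the podocyte genes 84.4% were protein coding, against 79.7% of genes tested, and 347 of the 419 podocyte-restricted genes were protein coding. The set was mostly one of modest differences: 1724 podocyte genes were at least 2-fold higher in both comparisons and 555 at least 8-fold. In 2169 (56.1%) the podocyte libraries did not overlap with the other 16. Podocyte genes were chosen as higher on these same libraries, which favours such separation, and its share over all genes tested is not given. The genes nearest the limit were Psmg4 (28.7 TPM in podocytes, 13.1 in mesangial cells and 23.3 in gECs) and Gm38055 just inside, whose calls were lost under 12 and 10 of the alternative settings, and Ttc37 (15.1, 9.2 and 13.2 TPM) and Bbs12 just outside.

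**Figure D2:**
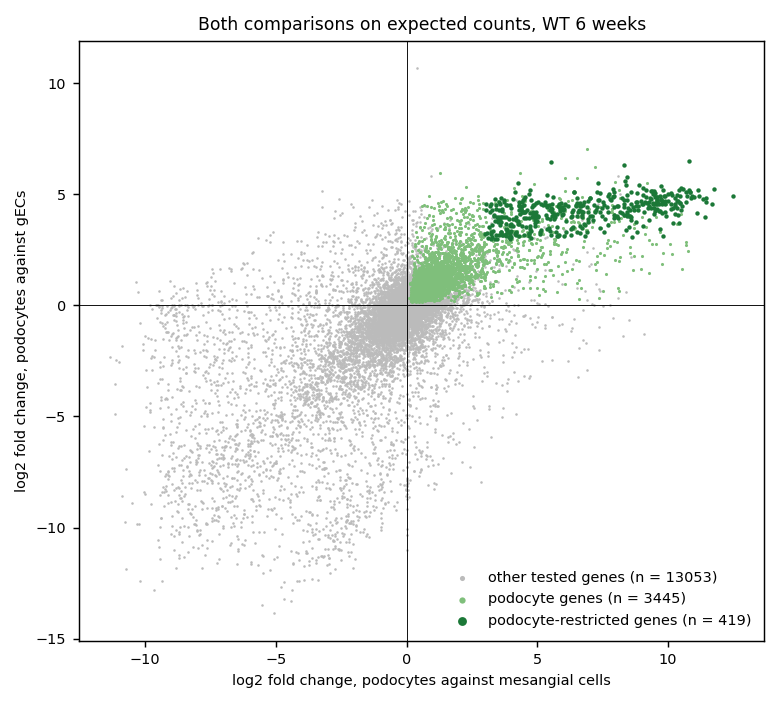
Log2 fold change of podocytes against mesangial cells (horizontal axis) and against gECs (vertical axis) for each of the 16917 genes tested on expected counts at 6 weeks. Points are genes, coloured as podocyte-restricted (n = 419), other podocyte genes (n = 3445) or other tested genes (n = 13053). Podocyte-restricted genes spread from 3 to over 11 against mesangial cells and crowd between 3 and 6.51 against gECs.

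In transcripts, podocyte genes made up 30.3 to 35.3% of all TPM in podocyte libraries (median 33.8%), 10.4 to 12.6% in mesangial libraries and 10.8 to 12.1% in gEC libraries. The 419 podocyte-restricted genes alone made up 8.28 to 9.63% in podocytes (median 9.32%), 0.194 to 0.243% in mesangial cells and 0.246 to 0.957% in gECs. These shares describe sets chosen on the same libraries. Among the 10 podocyte genes of highest level were Podxl (7264 ± 429 TPM, SD, n = 8 here and below), the MHC class I gene H2-Q6 (4893 ± 216 TPM), Itm2b (4238 ± 308 TPM), Vegfa (3383 ± 309 TPM) and the calmodulin gene Calm2 (2871 ± 300 TPM). H2-Q6 was at 8.84 TPM in mesangial cells and 207 TPM in gECs, but it belongs to a family of near-identical genes between which reads can be split, so its value is uncertain. Malat1 (6843 ± 2029 TPM) and mt-Nd4 (3967 ± 427 TPM) were podocyte genes of high level with small differences, mt-Nd4 having log2 fold changes of 0.40 ± 0.10 and 0.81 ± 0.10.

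Of 22 slit diaphragm genes tested, 15 were podocyte genes (68.2%), 7 of them podocyte-restricted, and 3 were lower than in both others. Over all genes tested, 22.8% were podocyte genes, 2.48% podocyte-restricted and 24.9% lower than in both. These shares stand beside this list and those below. The podocyte-restricted members included Ptpro (1350 ± 124 TPM), a receptor tyrosine phosphatase of the foot process surface, the scaffold Magi2 (747 ± 144 TPM), the phospholipase Plce1 (351 ± 34.7 TPM) and the polarity protein Crb2 (184 ± 17.7 TPM). Each of these 4 stood below 8 TPM in mesangial cells and between 7.45 and 60.7 TPM in gECs.

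The nephrin family and the partners of nephrin were less uniform. Kirrel2, a nephrin-like protein of the slit diaphragm, ran from 31 to 52.5 TPM in podocytes (median 42.5), from 0 to 0.65 TPM in mesangial cells and from 0.45 to 4.97 TPM in gECs, and was podocyte-restricted. Its relative Kirrel (Neph1) was higher in level, at 173 ± 13.5 TPM, but was also at 59.1 TPM in mesangial cells, so that its log2 fold change was 1.47 ± 0.27 there and 4.35 ± 0.31 against gECs. Kirrel3 was lower in podocytes than in both, at 0.119 TPM. Cd2ap, an adaptor that binds nephrin, was at 373 ± 21.4 TPM and higher by 2.78 ± 0.08 and 2.56 ± 0.07, and Fat1, a giant cadherin, was at 522 ± 53.5 TPM and higher by 1.06 ± 0.27 and 4.38 ± 0.31. Of the signalling adaptors of nephrin, Nck2 (145 ± 6.89 TPM) and Fyn (208 ± 17.2 TPM) were podocyte genes, while Nck1 was lower in podocytes (28.2 ± 4.52 TPM) than in both. Trpc6, a calcium channel described in podocytes and mutated in inherited glomerulosclerosis, ran from 0 to 0.35 TPM in podocytes and from 41 to 55.6 TPM in mesangial cells. Its 8 podocyte libraries together held 29 expected counts against 17438 in mesangial cells, and its difference from gECs was -0.06 ± 0.62.

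Of 37 foot process actin genes tested, 14 were podocyte genes (37.8%, beside 22.8% of all genes tested), 6 of them podocyte-restricted. Lower than in both others were 9, near the share of 24.9% over all genes tested. Ezr, which encodes ezrin and links podocalyxin to actin, ran from 969 to 1352 TPM in podocytes, from 0.64 to 5.33 TPM in mesangial cells and from 39.8 to 128 TPM in gECs. Arhgap24, a Rac GTPase-activating protein, was at 946 ± 42 TPM, the rhophilin gene Rhpn1 at 1250 ± 171 TPM, palladin (Palld) at 412 ± 21.3 TPM and Kank1 at 311 ± 21.4 TPM, and all 4 were podocyte-restricted. Inf2, a formin, was a podocyte gene with a large difference from mesangial cells (5.30 ± 0.12) and a small one from gECs (1.33 ± 0.10). Clic5, a partner of ezrin, showed the same order, at 1069 TPM in podocytes, 355 TPM in gECs and 2.23 TPM in mesangial cells.

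Several actin genes known from inherited glomerular disease were shared with mesangial cells. Actn4, which encodes alpha-actinin-4, was at 977 ± 34.9 TPM in podocytes, 994 TPM in mesangial cells and 366 TPM in gECs. Myo1e was at 359 ± 43, 336 and 114 TPM, and Daam2 at 306 ± 10.1, 293 and 12.2 TPM in the same order. Each of the 3 was higher in podocytes than in gECs and missed the threshold against mesangial cells. Myh9 was at 1111 ± 48.2 TPM in podocytes and lower than in mesangial cells (1344 TPM). The members lower than in both included Kank4 (0.34 TPM, against 134 and 70.8), the actin-binding Anln (0.0225 TPM), Vasp (21.2 TPM, against 278 and 75.4) and Tln1 (288 TPM, against 632 and 500). The foot process list thus held podocyte-restricted genes beside actin regulators that were shared or lower, the lower ones at about the share of all genes tested.

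Of 17 genes of the apical glycocalyx and ectoenzymes tested, 8 were podocyte genes (47.1%, beside 22.8% of all genes tested), 6 of them podocyte-restricted. Lower than in both were 6, beside 24.9% over all genes tested. The list holds Podxl and Nt5e, whose products were used in the sort, so its counts are in part set by the gates. Enpep, the aminopeptidase A that cleaves angiotensin II and whose upstream sequence is printed above, ran from 1842 to 2431 TPM in podocytes, from 0.66 to 4.32 TPM in mesangial cells and from 27.8 to 175 TPM in gECs (log2 fold change 10.36 ± 0.51 and 4.68 ± 0.39). Dpp4 (1280 ± 130 TPM), Thsd7a (546 ± 53.5 TPM), Mme (neprilysin, 358 ± 26.9 TPM) and podoplanin (Pdpn, 236 ± 22.4 TPM) shared this pattern, each under 1 TPM in mesangial cells. Thsd7a is a target antigen in human membranous nephropathy. Pla2r1, the main antigen of that disease in people, was at 0.429 TPM in mouse podocytes, 128 TPM in mesangial cells and 27.7 TPM in gECs, and was lower than in both. Nt5e, used in the sort, was at 0.656 TPM in podocytes and 363 TPM in mesangial cells.

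Of 29 transcription factors tested, 13 were podocyte genes (44.8%, beside 22.8% of all genes tested), 6 of them podocyte-restricted. Lower than in both were 9, beside 24.9% over all genes tested. Lmx1b ran from 312 to 405 TPM in podocytes, from 0.06 to 1.13 TPM in mesangial cells and from 5.5 to 32.9 TPM in gECs. Tcf21 (585 ± 41.4 TPM), Foxc2 (238 ± 19.2 TPM), Foxd1 (68.7 ± 6.57 TPM) and Sall1 (24.5 ± 1.94 TPM), which act in nephron or podocyte development, were podocyte-restricted as well. Wt1, the zinc-finger factor long used to count podocytes, ran from 858 to 1026 TPM in podocytes but from 98.3 to 165 TPM in mesangial cells, above its 14.7 to 102 TPM in gECs in most libraries. Its log2 fold change was 2.79 ± 0.28 against mesangial cells and 4.36 ± 0.31 against gECs, so it was a podocyte gene and not a restricted one. Foxc1, the close relative of Foxc2, was at 107 ± 11.8 TPM in podocytes and 145 TPM in mesangial cells. The members lower than in both included the glucocorticoid receptor Nr3c1 (37.6 TPM, against 131 and 79.8) and Hes1 (15.3 TPM, against 192 and 184), a Notch target.

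Of 27 basement membrane genes tested, 10 were podocyte genes (37%, beside 22.8% of all genes tested), 5 of them podocyte-restricted. Lower than in both were 12, beside 24.9% over all genes tested. The split ran through the type IV collagen family, whose chains assemble into trimers of alpha1 and alpha2, of alpha3, alpha4 and alpha5, or of alpha5 and alpha6. Col4a3 ran from 1444 to 2112 TPM in podocytes, from 2.5 to 6.89 TPM in mesangial cells and from 27.2 to 170 TPM in gECs (log2 fold change 8.65 ± 0.41 and 4.44 ± 0.34). Col4a4 was at 754 ± 105 TPM and Col4a5 at 271 ± 38.2 TPM, and Col4a6 was far lower in level at 7.37 ± 0.973 TPM though still podocyte-restricted. Col4a1 and Col4a2 went the other way, at 15.2 ± 2.2 and 40.7 ± 6.35 TPM in podocytes, 2230 and 1782 TPM in mesangial cells and 603 and 435 TPM in gECs. The divergent pair shown above, Col4a3 and Col4a4, thus differed by the same order of size in both comparisons, the log2 fold changes of Col4a4 being 8.46 ± 0.42 and 4.40 ± 0.35.

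The laminin chains of the mature glomerular membrane are alpha5, beta2 and gamma1. Lamb2 was at 381 ± 42.9 TPM in podocytes, 127 TPM in mesangial cells and 171 TPM in gECs, and Lama5 at 187 ± 23.9, 113 and 131 TPM, and both were podocyte genes with log2 fold changes from 0.59 to 1.71. Lamc1 was lower than in both (90.5 ± 11.7 TPM, against 141 and 137). Lamb1, the beta chain of immature membrane, was at 1 TPM in podocytes, 183 TPM in mesangial cells and 96.8 TPM in gECs. The heparan sulfate proteoglycans were divided as well. Agrn (198 ± 26.6 TPM) and Col18a1 (714 ± 79.2 TPM) were podocyte genes, while perlecan (Hspg2) was at 0.72 TPM in podocytes and 287 TPM in gECs and nidogen-1 (Nid1) at 2.1 TPM in podocytes and 535 TPM in mesangial cells. Npnt, which encodes nephronectin, a ligand of integrin alpha8, was podocyte-restricted at 1427 ± 140 TPM, and its receptor gene Itga8 was at 3.83 TPM in podocytes and 2235 TPM in mesangial cells.

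**Figure D3:**
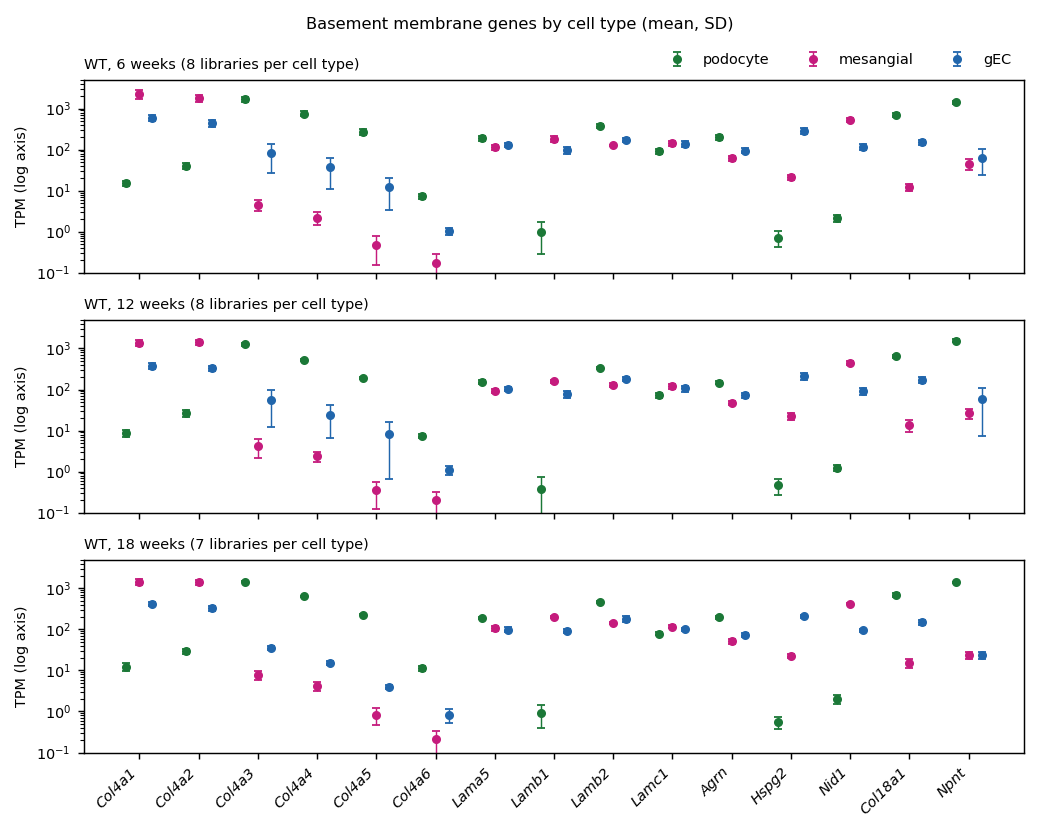
Mean TPM and SD on a log axis of 15 basement membrane genes in podocytes, mesangial cells and gECs of WT mice at 6, 12 and 18 weeks (8, 8 and 7 libraries per cell type). Col4a3 to Col4a6 stand highest in podocytes and Col4a1, Col4a2, Lamb1, Hspg2 and Nid1 lowest in podocytes at each age.

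Of 27 matrix adhesion receptors tested, 12 were podocyte genes (44.4%, beside 22.8% of all genes tested), 5 of them podocyte-restricted. Lower than in both were 12, beside 24.9% over all genes tested. The integrin chain Itga3, which binds laminin, was at 1029 ± 102 TPM in podocytes, 252 TPM in mesangial cells and 316 TPM in gECs. Itgb5 (1025 ± 67.3 TPM), Itgb8 (98.4 ± 8.54 TPM) and Itga2 (18.9 ± 2.69 TPM) were podocyte-restricted, as were the syndecans Sdc4 (2083 ± 164 TPM) and Sdc2 (243 ± 27.7 TPM). Itgb1, the common beta chain, was at 531 ± 36.3 TPM, lower than in mesangial cells (811 TPM), and missed the threshold against gECs (508 TPM). Sdc3 was at 1.04 TPM in podocytes against 514 TPM in mesangial cells. Members of the same integrin and syndecan families thus lay at opposite ends of the comparison.

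Of 44 vascular growth factors and receptors tested, 7 were podocyte genes (15.9%), under the share of all genes, and 26 were lower than in both. Vegfa, which maintains the fenestrated endothelium, ran from 2877 to 3798 TPM in podocytes, from 4.85 to 20.4 TPM in mesangial cells and from 373 to 682 TPM in gECs (log2 fold change 8.06 ± 0.21 and 2.87 ± 0.16). Its receptors Kdr and Flt1 were at 0.545 and 0.397 TPM in podocytes and 1735 and 627 TPM in gECs. Cxcl12 was a podocyte gene at 87.3 ± 7.52 TPM, and its receptor Cxcr4 was at 0.12 TPM in podocytes and 33.4 TPM in gECs. Fgfr1 (300 ± 29.4 TPM), Fgfr4 (15.3 ± 4.42 TPM) and Bmp7 (161 ± 8.41 TPM) were podocyte-restricted. Angpt1, often described as a podocyte product, was at 0.02 TPM in podocytes and lower than in both.

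Of 61 guidance cues and receptors tested, 17 were podocyte genes (27.9%, near the 22.8% of all genes tested), 6 of them podocyte-restricted. Lower than in both were 22, beside a share of 24.9% over all genes tested. Sema3g, a class 3 semaphorin, was at 2071 ± 295 TPM in podocytes, 165 TPM in gECs and 1.87 TPM in mesangial cells, and Sema3e at 245 ± 15.1, 9.66 and 2.79 TPM. Robo2, a receptor that binds Slit proteins and interacts with nephrin through Nck, was at 596 ± 62.7 TPM and higher by 2.91 ± 0.32 and 4.61 ± 0.34. Its effector Srgap1 was podocyte-restricted at 356 ± 56.5 TPM. The ephrin Efnb1, described at the slit diaphragm, was at 378 ± 20.5 TPM and a podocyte gene, while Efnb2 was lower than in both (53.2 TPM, against 197 and 701).

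Of 35 polarity and tight junction genes tested, 14 were podocyte genes (40%, beside 22.8% of all genes tested), 6 of them podocyte-restricted. Lower than in both were 10, near the share of 24.9% over all genes tested. The apical Crumbs complex was represented by Crb2, Mpp5 (Pals1, 311 ± 19.9 TPM) and Inadl (Patj, 45.1 ± 6.59 TPM), and the Par complex by Pard6b (148 ± 8.15 TPM) and Pard3b (430 ± 49.3 TPM), all podocyte-restricted, with Prkci (156 ± 16 TPM) a podocyte gene. The paralogues differed: Pard6g was at 0.474 TPM in podocytes against 61.7 TPM in mesangial cells, and Pard3 was at 43.6 TPM against 77.9 TPM. Of the claudins, Cldn5 was at 402 ± 25.8 TPM in podocytes, ranging from 371 to 440, against 46.8 to 71.3 TPM in gECs and 0.08 to 1.59 TPM in mesangial cells. Cldn1, a marker of parietal epithelium, was also a podocyte gene (13 ± 1.84 TPM), but it was called again only at 18 weeks and not at 12 weeks. The summed level of the 8 parietal markers was 48.5 to 67.4 TPM in podocytes. Most of that was Akap12 (39.9 TPM in podocytes, against 145 and 227), which was lower than in both, as was Cp (1.51 TPM). Pax2, Krt8 and Krt18 were under 0.1 TPM in podocytes and Krt19 was at 0 in every podocyte library.

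Of 49 synaptic vesicle and neuronal genes tested, 12 were podocyte genes (24.5%), close to the share of all genes, and 18 were lower than in both. Rab3b, a GTPase of regulated secretion, stood out in level at 875 ± 68.8 TPM against 1.5 TPM in mesangial cells and 29 TPM in gECs. Mapt, which encodes tau, was at 574 ± 63.7 TPM and higher by 2.27 ± 0.08 and 1.53 ± 0.08, and Ncam1, Tubb2b and Syn1 were podocyte-restricted at 39.9, 98.6 and 7.08 TPM. Of 40 receptors for hormones and lipid mediators tested, 8 were podocyte genes (20%, near the 22.8% of all genes tested) and 19 were lower than in both. Pth1r, the parathyroid hormone receptor, was podocyte-restricted at 853 ± 54.8 TPM, and the natriuretic peptide receptors Npr1 (646 ± 48.5 TPM) and Npr3 (340 ± 27.1 TPM) were podocyte genes. The angiotensin II receptor Agtr1a was at 0.998 TPM in podocytes and 621 TPM in mesangial cells. Of 14 complement regulators and receptors tested, 3 were podocyte genes (21.4%, also near the share of all genes). They were Cd55 (350 ± 29.2 TPM), Cd59a (170 ± 8.07 TPM) and Cd59b (21.3 ± 5.95 TPM), all inhibitors held on the cell surface. Cd59a and Cd59b are close copies, and how reads were divided between them is uncertain.

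Of 66 genes linked to inherited nephrotic syndrome tested, 32 were podocyte genes (48.5%, beside 22.8% of all genes tested), 15 of them podocyte-restricted. Lower than in both were 10, beside 24.9% over all genes tested. Many members of the list are the slit diaphragm, actin and matrix genes described above. Nup107, of the nuclear pore, was at 10 TPM in podocytes, 10.2 TPM in mesangial cells and 8.04 TPM in gECs, and the coenzyme Q gene Coq2 was a podocyte gene with log2 fold changes of 0.49 ± 0.08 and 0.37 ± 0.08. Itga3, Tbc1d8b (22.1 ± 1.52 TPM) and Nos1ap (152 ± 10.3 TPM) were podocyte genes too. Scarb2, a lysosomal membrane protein, was lower in podocytes than in both (61.4 TPM, against 226 and 102).

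None of 25 proliferation genes was a podocyte gene with edgeR and limma, at an unadjusted p under 0.05, or with DESeq2, and 23 were lower in podocytes than in both. Mki67 was at 0.0325 ± 0.0354 TPM in podocytes, 7.09 TPM in mesangial cells and 8.82 TPM in gECs, and Top2a at 0.105, 8.82 and 5.98 TPM. Of 9 cell cycle inhibitors tested, 1 was a podocyte gene (11.1%) and 5 were lower than in both. That gene was Cdkn1c (p57), which ran from 1763 to 2276 TPM in podocytes, from 9.01 to 14.1 TPM in mesangial cells and from 27.4 to 184 TPM in gECs. Cdkn1a (p21) was at 0.61 TPM in podocytes, 21 TPM in mesangial cells and 356 TPM in gECs. Of 17 glycolysis genes tested 1 was a podocyte gene (5.88%, Pkm). Of 34 autophagy and lysosome genes 7 were (20.6%, near the 22.8% of all genes tested), among them the cathepsins Ctsl (475 ± 36.7 TPM) and Ctsd (247 ± 20.7 TPM).

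Genes induced by tissue dissociation were measured beside these groups because the cells were digested at 37 °C. Their summed level was 12369 to 30830 TPM in podocytes, 31661 to 47873 TPM in mesangial cells and 28393 to 47392 TPM in gECs, and of 28 tested 2 were podocyte genes (7.14%) and 14 were lower than in both. Their part in the other differences was not tested.

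**Figure D4:**
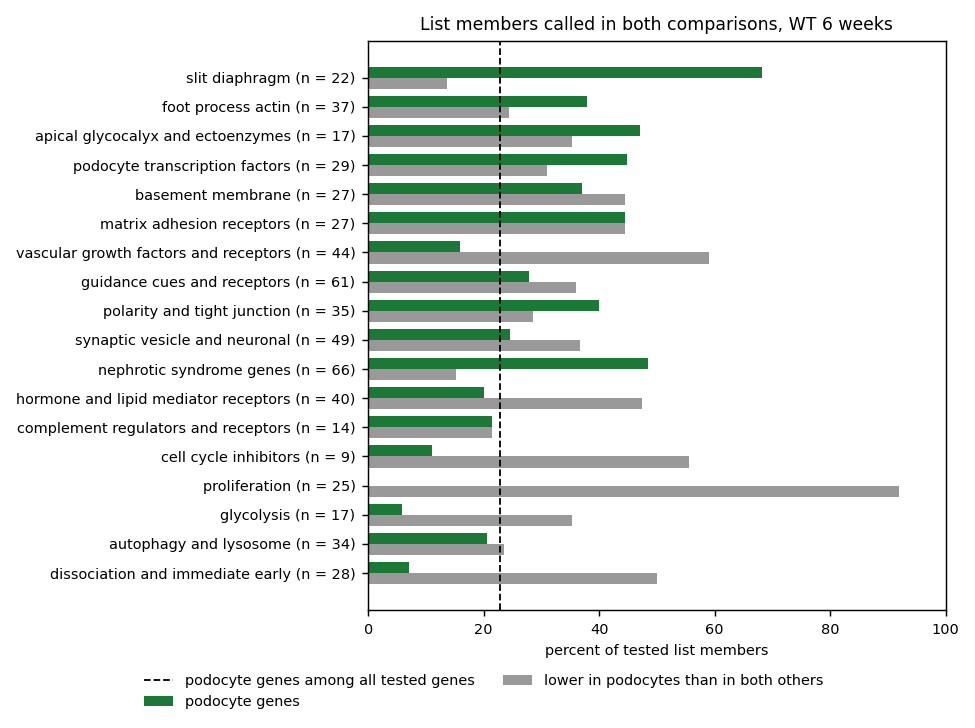
Percent of the tested members of 18 gene lists that were podocyte genes (green) or lower in podocytes than in both other cell types (grey), with the number tested after each name. The dashed line marks the 22.8% of all genes tested that were podocyte genes, which the slit diaphragm list (68.2%) exceeds most and the proliferation list (0 of 25) stays furthest below. The lists were chosen with earlier results of these data known. The slit diaphragm list holds the markers Nphs1 and Podxl, and the apical list holds Podxl and Nt5e, whose products were used in the sort. The shares are therefore descriptions.

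The 20 podocyte genes with the largest smaller fold change (at 10 TPM or more) held no member of the slit diaphragm list. Their levels ran from 12.6 to 1752 TPM, and their log2 fold changes against gECs from 5.12 to 6.51. The most abundant was Clic3, a chloride intracellular channel protein, at 1752 ± 135 TPM in podocytes, 2.28 TPM in mesangial cells and 51.9 TPM in gECs. Next were Tdrd5, a tudor-domain protein known from germ cells (426 ± 74.3 TPM), Prm1, which encodes the sperm protamine 1, and Pdpn. Prm1 ran from 131 to 552 TPM in podocytes (median 232), from 0 to 0.56 TPM in mesangial cells and from 0.61 to 14.5 TPM in gECs, and had log2 fold changes of 10.80 ± 0.65 and 6.51 ± 0.45. The other sperm nuclear proteins Prm2, Prm3 and Tnp2, looked up after Prm1 was seen, were at 0 in every podocyte library. Prm1 was still at 297 TPM in podocytes at 12 weeks and 349 TPM at 18 weeks.

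Rarres1 (105 ± 11.5 TPM), the Wnt inhibitor Wif1 (91.4 ± 15.3 TPM), the dynein intermediate chain Dync1i1 (66.3 ± 5.87 TPM), the GABA receptor subunit Gabra4 (39.8 ± 3.07 TPM), the potassium channel Kcnj12 (42.8 ± 3.16 TPM) and the cytokine Il18 (18.8 ± 2.62 TPM) were also among the 20. Each was under 0.3 TPM in mesangial cells and under 3 TPM in gECs. Muscle genes were present in the group as well, with nebulin (Neb) at 26.9 ± 6.58 TPM and the atrial light chain Myl7 at 15.1 ± 9.32 TPM. Cox7b2, Lingo2 and Sowahd had no count in any mesangial library and stood at 12.7, 13.6 and 12.6 TPM in podocytes, and no fold against mesangial cells is given for them. Il18, Neb, Prm1 and Gabra4 overlap genes on the opposite strand, whose reads may not be told apart.

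The spread between the 8 podocyte libraries differed among the podocyte-restricted genes. The coefficient of variation had a median of 13.7%, from 3.99% for Synpo to 77.3% for Rbpjl, and 18 of the 419 genes were over 40%. Arhgap24 (4.44%) and Sh3bgrl2 (4.43%) were among the steadiest. Myl7 (61.8%) and Prm1 (50.8%) were among the most variable (these genes were chosen after their values were seen), Prm1 reaching 552 TPM in male library 4 and 417 TPM in female library 1 against 131 to 246 TPM in the other 6.

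Podocyte-restricted genes were not at 0 in the other libraries. As a share of the mean podocyte level, their median over genes was 0.68 to 1.2% in the 8 mesangial libraries and 2.18 to 10.4% in the 8 gEC libraries, the highest being male gEC libraries 2 (10.4%) and 1 (8.11%). Over genes, the level had quartiles of 4.19 and 7.8% in gECs (median 5.41%) and of 0.215 and 4.69% in mesangial cells (median 1.14%), and its upper end is bounded by the fold that chose these genes. In the log2 fold changes this gave quartiles of 3.82 and 4.66 against gECs (median 4.30) and 4.50 and 9.00 against mesangial cells (median 6.53, also with the 12 genes at 0 in all mesangial libraries set to a floor of 3 counts over the group). Without those 2 gEC libraries the median against gECs was 4.82, 431 genes were podocyte-restricted (418 of them in common) and 3787 were podocyte genes (3676 in common). At 12 weeks the gEC library medians ran from 2.3 to 12.4% and at 18 weeks from 2.22 to 3.19%. Podocytes in the gEC gate, RNA taken up from other cells and a low level in gECs themselves cannot be told apart in these bulk libraries, nor can fewer podocytes and less RNA per podocyte, and fold changes against gECs are limited by this level.

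**Figure D5:**
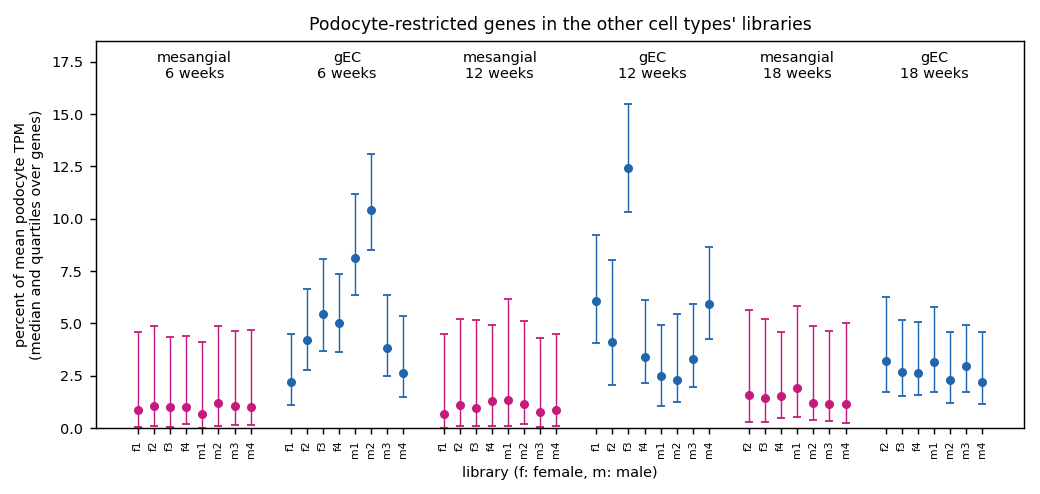
Level of the 419 podocyte-restricted genes in each WT mesangial and gEC library at 6, 12 and 18 weeks, as percent of the mean podocyte TPM at the same age. Points are medians over genes and bars span the quartiles. Mesangial libraries stay between 0.68 and 1.91%, while gEC libraries run from 2.18 to 12.4%.

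The calls were repeated in the WT libraries at later ages, which share neither podocyte nor control samples with the 6-week comparison. At 12 weeks 4313 of 17747 genes were higher in podocytes than in both others on expected counts (24.3%) and at 18 weeks 3990 of 16297 (24.5%). Of the 3864 podocyte genes, 3371 (87.2%) were called again at 12 weeks and 3372 (87.3%) at 18 weeks, and 3753 and 3745 had the same direction in both comparisons. All 419 podocyte-restricted genes were called again at 12 weeks and 417 at 18 weeks, where the other 2, Gm29595 and RP23-1A12.4, were not tested. Their median log2 fold changes were 6.27 and 4.45 at 12 weeks and 5.97 and 5.12 at 18 weeks, against mesangial cells and gECs. Nphs1 was at 1606 TPM in podocytes at 12 weeks and 1952 TPM at 18 weeks, Synpo at 2202 and 2139 TPM, and Podxl at 6914 and 7112 TPM. No test between ages was made, so these levels are given side by side only.

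Male and female podocytes at 6 weeks differed in 10 of 14849 genes tested (0.0673%), 4 higher and 6 lower in males. Of these, 2 were podocyte genes (Xist and Kirrel2), and Kirrel2 was the only podocyte-restricted one. Its 4 female libraries were at 52.33, 47.47, 52.51 and 51.53 TPM and its 4 male libraries at 33.59, 31.02, 33.59 and 37.45 TPM. The groups did not overlap, and the log2 fold change was -0.58 (adjusted p = 0.0333, edgeR quasi-likelihood test with Benjamini-Hochberg adjustment). Leaving out 1 library ended this call in 7 of 8 cases, with adjusted p from 0.081 to 0.163, and it held only without male library 3. The other genes called were the Y-linked Eif2s3y, Ddx3y, Kdm5d and Uty, higher in males, and Kdm6a, Eif2s3x, Kdm5c and Gm14288, lower in males. Kdm5c lost its call in all 8 cases (adjusted p from 0.054 to 0.177, edgeR quasi-likelihood test with Benjamini-Hochberg adjustment), and Gm14288 lost its call without female library 2 (adjusted p = 0.0532). Nphs1, Synpo and Wt1 did not pass the threshold. A test of whether the difference between cell types differed by sex called 1 of 16917 genes (0.00591%) against mesangial cells and 1 (0.00591%) against gECs, and the gene was Xist in both.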

How the data were processed

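RNA from sorted cells was made into libraries with the SMART-Seq Stranded kit and sequenced. Per the labels and methods, the authors checked reads with FastQC 0.11.5, aligned them with Bowtie2 2.3.3.1 and counted them with RSEM 1.3.0 on mm10, depositing for each library expected counts per gene, which need not be whole, and TPM scaled by the authors for length and depth. RSEM was run with its default parameters, which do not use strand, so reads of genes that overlap on opposite strands cannot be told apart.

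Expected counts were rounded, filtered (filterByExpr), scaled (TMM) and tested with edgeR 4.0.16 (quasi-likelihood, two-sided, Benjamini-Hochberg over all genes tested) in 1 fit of 24 libraries with sex as a covariate. TPM was tested with limma 3.58.1 on log2(TPM + 1) for genes with a mean of at least 1 TPM in a cell type, and fold changes printed are those of edgeR on counts. The SE beside a fold change is approximate, being its absolute value divided by the square root of the quasi-likelihood F statistic. The 12-week (24 libraries) and 18-week (21 libraries) fits were the same. DESeq2 1.42.0 was an alternative. Genes were named as markers, list members, the 20 of largest fold, the 10 of highest level, those nearest the threshold, and those of the sex comparison. The members and gene lists were chosen with earlier results of these data known. Gene positions are from the GENCODE M21 annotation on mm10, and upstream sequences from RefSeq. Some items are not reported here. The ob/ob and perfusion samples were not used here.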

Additional observations from a re-analysis of the deposited data

Results flagged for a closer look

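Xist, the non-coding RNA of the inactive X chromosome, was the gene whose difference between cell types differed between the sexes. The male minus female difference in its log2 fold change was 2.62 against mesangial cells and 2.64 against gECs, by an interaction term (adjusted p = 0.00149 and 0.000474, edgeR quasi-likelihood test with Benjamini-Hochberg adjustment). No other gene passed in either comparison (1 of 16917 genes in each, 0.00591%). Male libraries held at most 1.99 TPM of Xist, a low level for a fold change in males. Single libraries stood apart from their group for some genes. In gECs, Prm1 was at 14.52 TPM in male library 2, the next highest library being at 3.12 TPM. In podocytes, Cdkn1c was at 1763 TPM in female library 3, the next lowest library being at 2039 TPM.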

How the results depend on the processing

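Requiring a log2 fold change of at least 1 left 3009 genes higher and 3549 lower in podocytes than in mesangial cells, 2945 higher and 3942 lower than in gECs, and 1724 podocyte genes. A log2 fold change of at least 4 left 253 podocyte-restricted genes. The other alternatives gave 3594 to 4539 podocyte genes, and leaving out 1 podocyte library gave 3734 to 3952. The replicate block gave 3991 podocyte genes, 425 podocyte-restricted genes, and 3484 and 3392 called again at 12 and 18 weeks. Libraries of the same number deviated together in only 4 of 24 pairs (correlation over 0.1, range -0.173 to 0.232), so the numbers were not taken as pairs. The own number gave the highest of 4 correlations in 16 of 24, where chance gives 6, a hint of pairing. The labels hold a second hint, since WT female number 1 is missing from all 3 cell types at 18 weeks. No label states which libraries share a mouse, and the main fits left a possible pairing out. The sex comparison of podocytes gave 34 genes with DESeq2 (8 higher and 26 lower in males), 18 without a filter on low counts (12 lower), and 7 to 10 without 1 library (3 to 5 lower, 4 to 5 higher), fits with fewer samples. With RLE scaling 2 genes differed by sex in the comparison with mesangial cells, Psme2b being added to Xist. Without the sex term Xist was not a podocyte gene. The share of calls that were higher ran from 46.4 to 51.6% over the scalings (TMM, RLE and library totals) and from 44.5 to 51.8% over all settings. The median of all genes against mesangial cells went from 0.06 to -0.03 with RLE and to -0.08 without a filter. Of 4845 values of named genes under an alternative, 4783 kept direction and call, 45 lost a call (Psmg4 12, Gm38055 10, Kdm5c 8, Kirrel2 7 and Bbs12 3 among them), 6 gained one, and 11 changed sign, all of genes that had not passed the test. The 11 were Nup107 against mesangial cells (-0.07 with RLE or DESeq2, -0.04 with library totals or its own libraries, -0.11 without a filter), Daam2 (-0.03 without a filter), Actn4 (0 without podocyte library f4 or m3) and Trpc6 against gECs (0.12, 0.15 and 0.06 without podocyte library f1, f3 or m1, in a range of -0.69 to 0.15). Leaving out gEC male libraries 1 and 2, or gEC female library 3 at 12 weeks, was chosen after seeing the data. The cause was not tested.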

Other observations

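Among 1294 head-to-head pairs of tested genes of any kind, 6 had both genes podocyte-restricted. Besides the 3 protein-coding pairs, these were Lmx1b with C130021I20Rik (starts 682 bases apart on chromosome 2), Magi2 with 4921504A21Rik (481 bases, chromosome 5) and Shisa3 with RP23-213N8.1 (56 bases, chromosome 5). Distances between starts use the GENCODE positions. For Lmx1b that start is 33640511, while the sequence printed above lies before the RefSeq start at 33641098, which is nearer to C130021I20Rik. The number of CpG dinucleotides in the window before the start had a median of 12 in podocyte-restricted genes and 15 in all genes tested, given as a description with no test.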
